A study of Mus musculus with 8 samples.

Results

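Fatty acid uptake and acyl-CoA activation were described through 8 mouse genes, namely Cd36, the fatty acid transport protein genes Slc27a1, Slc27a2 and Slc27a4, and the long-chain acyl-CoA synthetase genes Acsl1, Acsl3, Acsl4 and Acsl5. They were chosen by name, and they are 8 of the 13852 genes that had a value in these data. RNA was sequenced from intestinal organoids, which are epithelial cultures grown in Matrigel from crypts, isolated from the small intestine by the study's methods for intestinal organoids, of MG53-TG mice and their wild-type (WT) littermates, with 4 samples in each group. MG53-TG mice overexpress MG53, the tripartite motif protein encoded by Trim72, throughout the body, so the transgene is not restricted to the epithelium. Both groups were cultured in the same IntestiCult medium without a further treatment named in the labels, and the age of the mice, the promoter of the transgene and the part of the small intestine were not given in the sources used here. The labels give the genotypes as wt and mg53-tg. The study describes organoid RNA both as MG53-TG against WT and as a cross of MG53-TG with Lgr5 knock-in mice against Lgr5 controls. Whether these samples carried the Lgr5 knock-in is not given in the labels. The labels also do not say whether the samples of a group came from separate mice or cultures. The p-values therefore measure only the spread between these samples.

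The values were FPKM, that is, sequenced fragments scaled to transcript length and to the size of the library, which the authors deposited per transcript event, that is, per transcription start, transcription end, skipped exon, retained intron or alternative exon end. FPKM summed over all start events was 269837 to 273797 in the WT and 269094 to 284330 in the MG53-TG group. The number of reads behind each value is unknown. Trim72 had no entry in the WT group, and MG53-TG samples 1 to 4 had 16.4, 27.4, 31.9 and 36.5 FPKM of it. All 9 epithelial markers were listed in both groups. By the mean over all 8 samples the most abundant were Krt8, with 745 ± 71.4 FPKM in WT and 575 ± 20.1 FPKM in MG53-TG organoids (SD, n = 4 each), and Epcam, with 438 ± 38.4 and 443 ± 43.7 FPKM (SD, n = 4 each). Across the 10508 genes used for this comparison, correlations between samples were 0.970 to 0.974 within the WT, 0.939 to 0.975 within the MG53-TG and 0.827 to 0.902 between the groups.

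Long-chain fatty acids enter the absorptive cells of the intestine by diffusion and with the help of membrane proteins. CD36 binds fatty acids at the cell surface, and the fatty acid transport proteins (FATP, encoded by the Slc27a genes) combine uptake with the joining of the fatty acid to coenzyme A. The acyl-CoA synthetases of the ACSL family carry out the same activation on intracellular membranes, which traps the fatty acid in the cell and makes it a substrate for triglyceride and phospholipid synthesis, elongation or oxidation. In enterocytes, most activated fatty acid from a meal goes into triglycerides that leave the cell in chylomicrons.

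Of the 8 genes, Cd36, Slc27a2, Slc27a4, Acsl1 and Acsl5 were higher and Acsl3 and Acsl4 were lower in the MG53-TG organoids, and Slc27a1 did not pass the threshold. The test was limma on log2(FPKM + 1) with Benjamini-Hochberg adjustment over all genes and a threshold of 0.05, and its fold changes, given with their standard errors (SE), understate the change of genes with low values. The count of 7 of 8 includes Cd36, which passed the filter of a mean of 0.5 FPKM only through the MG53-TG group. That count has to be read against a large background, because 44.4% of the 10841 genes tested were called, 15.5% as higher and 28.9% as lower in the MG53-TG organoids. By the same test 6 of the 9 epithelial markers were lower, 1 (Vil1) was higher and 2 (Epcam and Krt19) were not called. The groups did not overlap for the same 7 of the 8 uptake and activation genes, Cd36 among them only with an absent MG53-TG value treated as missing, and for 44.6% of all genes tested, 15.8% with every MG53-TG value above and 28.9% with every one below the WT values. The share of calls that were higher was 34.9% as reported, 50.3% if samples were scaled by the median of ratios and 44.7% if they were quantile normalized. The median log2 fold change was 0.56 over the 8 genes, Cd36 included, and -0.17 over all genes tested. With the filter at a mean of 2 FPKM, which Cd36 did not pass, the medians were 0.35 over 7 genes and -0.19 over all genes tested. In bulk samples, fewer cells of a type and less RNA per cell cannot be told apart.

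**Figure D1:**
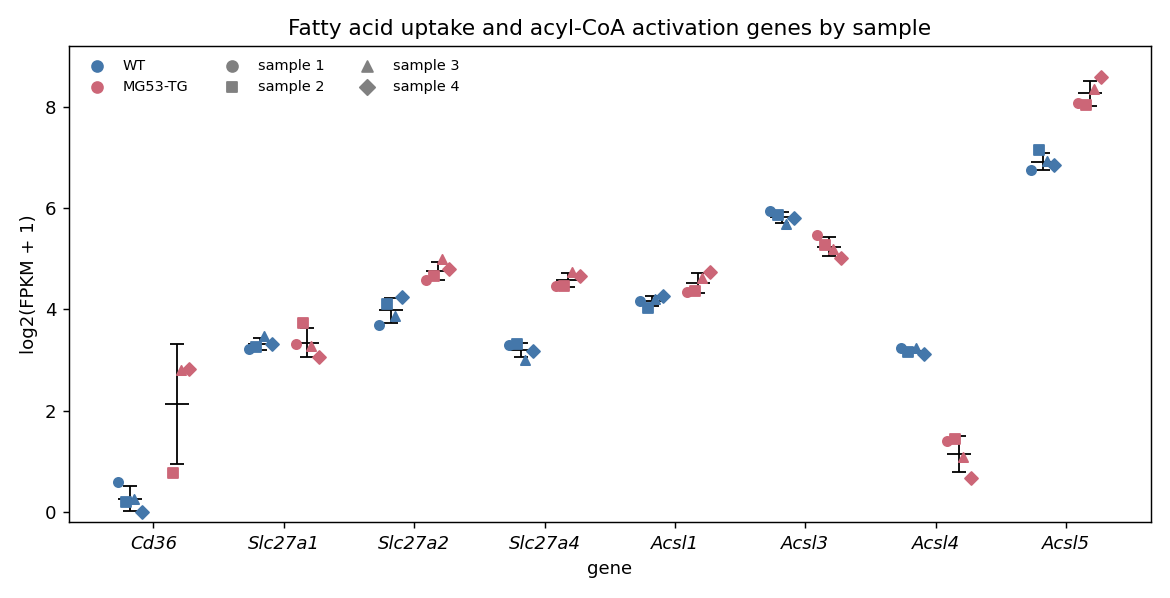
Level of each gene in each sample on the log2(FPKM + 1) axis, with the 4 WT samples in blue and the 4 MG53-TG samples in red. The horizontal mark is the group mean, the bars are 1 SD, and marker shape gives the sample number. The point of Cd36 in MG53-TG sample 1 is missing because it had no entry there, and WT sample 4, also without an entry, is drawn at 0. The groups overlap for Slc27a1, and the points of Acsl4, Slc27a4 and Acsl5 lie furthest from those of the other group among genes listed in all 8 samples.

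Among the uptake genes, Cd36 (ENSMUSG00000002944, GRCm38 chr5:17781690-17888801, minus strand), which encodes the cell surface fatty acid receptor CD36, was low in the WT and uneven in the MG53-TG organoids. It was listed at 0.510, 0.154 and 0.195 FPKM in WT samples 1 to 3 and had no entry in WT sample 4. MG53-TG samples 2 to 4 had 0.709, 6.00 and 6.12 FPKM, and MG53-TG sample 1 had no entry. MG53-TG samples 3 and 4 were thus far above every other sample, and MG53-TG sample 2 lay close to WT sample 1. With MG53-TG sample 1 treated as missing, the log2 fold change was 1.87 (SE 0.48, limma adjusted p = 0.0162, exact permutation p = 0.0571 over 35 relabellings, the smallest this number of samples allows). The absent WT sample 4 counted as 0, because the rule for absent values depends on the group median. Cd36 also passed the filter of a mean of 0.5 FPKM only through the MG53-TG group, with a WT mean of 0.215 FPKM. These p-values therefore add no support beyond the listed values. Over the alternatives the adjusted p ranged from 0.000158 to 0.106. With the absent value taken as 0 the fold change fell to 1.34 on the log2 scale (limma adjusted p = 0.106), and the limma adjusted p was 0.0591 without MG53-TG sample 3 and 0.0542 without MG53-TG sample 4. The log2 fold change was larger, at 3.59, with a pseudocount of 0.1 and at 2.56 without MG53-TG sample 2. The value rested on the last exon of transcript Cd36-204 (chr5:17781690-17783349), since the starts of Cd36 were listed in few samples. The start at the first exon of Cd36-201 (chr5:17835618-17835696) was at 0.134, 0.154 and 0.0716 FPKM in WT samples 1 to 3 and at 0.709 FPKM in MG53-TG sample 2, and it had no entry in MG53-TG samples 3 and 4, where the last exon was high. The start of Cd36-204 itself (chr5:17849657-17849792) had 0.376 FPKM in WT sample 1 and 0.123 FPKM in WT sample 3 and no entry in any MG53-TG sample. Of its 6 events, 1 was left out, a start listed in MG53-TG sample 3 whose exon end is not in the annotation.

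Many markers of other cells known for CD36 had no entry in these cultures, and others were at levels in the range of Cd36 itself or above. Of 7 endothelial markers only Esam had an entry, at 2.07 to 3.42 FPKM (WT) and 1.14 to 2.07 FPKM (MG53-TG), while Pecam1, Cdh5, Kdr, Tie1, Tek and Emcn had none. Of 9 macrophage and other leukocyte markers 4 had an entry, the list summed to 3.77 to 9.24 FPKM (WT) and 0.609 to 1.47 FPKM (MG53-TG), Cd68 carried most of it, and Adgre1, Csf1r, Itgam, Cd14 and Cd79a had no entry. Esam and Cd68 were called lower in the MG53-TG organoids (log2 fold changes -0.58 and -1.84, limma adjusted p = 0.0196 and 0.000554), beside 28.9% of all genes. Lyz2 was at most 0.296 FPKM in every sample. The 6 adipocyte markers summed to 0.182 to 1.76 FPKM (WT) and to at most 0.607 FPKM (MG53-TG) (Lpl and Adipoq were the most abundant by the mean over all 8 samples, and Lpl had no entry in the MG53-TG group). Of 8 fibroblast and muscle markers 3 were tested, and Col1a2 and Col3a1 were called higher, beside 15.5% of all genes (limma adjusted p = 0.00370 and 0.000644, with MG53-TG sample 1 treated as missing). Both passed the filter of a mean of 0.5 FPKM only through MG53-TG samples 2 to 4. These p-values therefore add no support beyond the listed values. The list summed to 1.80 to 3.24 FPKM (WT) and 1.31 to 5.17 FPKM (MG53-TG), and its most abundant gene, Vim, had 1.80 to 3.24 FPKM (WT) and 0.945 to 2.45 FPKM (MG53-TG) with overlap (limma adjusted p = 0.126). Col1a1, Col1a2 and Col3a1 had no entry in any WT sample or in MG53-TG sample 1 and were listed in MG53-TG samples 2 to 4. There Col1a1 had 0.465, 0.659 and 0.647 FPKM and was lowest in MG53-TG sample 2, as Cd36 was. Col1a2 had 2.07, 0.926 and 0.739 FPKM and Col3a1 1.62, 0.904 and 1.25 FPKM, and both were highest in that sample. Pdgfra, Pdgfrb and Acta2 had no entry in any sample. The part of endothelial cells, leukocytes, adipocytes or fibroblasts in the value of Cd36 was not tested.

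Slc27a2 and Slc27a4 rose, whereas Slc27a1 did not separate the groups. Slc27a4 (ENSMUSG00000059316, chr2:29802634-29817522, plus strand) encodes FATP4, the main FATP of the small intestine. WT samples 1 to 4 had 8.79, 8.92, 7.01 and 8.09 FPKM and MG53-TG samples 1 to 4 had 21.0, 21.1, 25.8 and 24.2 FPKM. The lowest MG53-TG sample was far above the highest WT sample, and the spread within each group was small beside the gap between them. Its log2 fold change was 1.38 (SE 0.12, limma adjusted p = 4.06e-05, exact permutation p = 0.0286, the smallest that 4 samples against 4 allow).

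The RefSeq promoter table (GRCm38.p6), which gives 250 bases before to 50 bases after each transcription start, held 11 windows for the 8 genes, of which 6 had the very start that the deposited events list. The window of Slc27a4 (chr2:29802384-29802683, plus strand) is shown because 1 start carried nearly the whole rise of the gene. Capitals mark each match, on either strand, of the GC box letters GGGCGG, the CCAAT letters or the nuclear receptor half-site letters AGGTCA.
Slc27a4: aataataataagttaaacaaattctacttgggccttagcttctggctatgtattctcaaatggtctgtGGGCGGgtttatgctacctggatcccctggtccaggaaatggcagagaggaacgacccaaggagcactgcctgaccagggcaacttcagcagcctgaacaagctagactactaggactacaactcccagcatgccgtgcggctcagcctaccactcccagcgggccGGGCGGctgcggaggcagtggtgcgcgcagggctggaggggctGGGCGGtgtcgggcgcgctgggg
GGGCGG was found in 3 places in this window and the other motifs in none. Among all 32851 windows of the table, 35.7% hold GGGCGG, 37.4% hold CCAAT and 16.3% hold AGGTCA. The start in this window, the first exon of Slc27a4-201 (chr2:29802634-29802960, not coding), accounted for 99.5% to 100% of the start FPKM in the 8 samples. A second listed start, in the processed transcript Slc27a4-202, stayed at or below 0.121 FPKM. Of 5 deposited events of Slc27a4, 2 were left out because they lay on the opposite strand in WT sample 3.

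Slc27a2 (ENSMUSG00000027359, chr2:126552407-126588243, plus strand) encodes FATP2, which activates very-long-chain fatty acids as well as taking part in uptake. WT samples 1 to 4 had 12.0, 16.3, 13.7 and 17.8 FPKM and MG53-TG samples 1 to 4 had 22.8, 24.3, 30.9 and 26.7 FPKM. The groups did not overlap, and MG53-TG sample 3 was the highest. This gave a log2 fold change of 0.77 (SE 0.15; limma adjusted p = 0.00325, exact permutation p = 0.0286). The first exon of Slc27a2-201 (chr2:126552407-126553632) carried 94.7% to 100% of its start FPKM. From the end events alone, in which MG53-TG sample 3 was at 19.3 and not 30.9 FPKM, the log2 fold change was 0.61. An intron of 2965 bases (chr2:126574896-126577860) was retained in 0, 18.2, 0 and 13.8% of FPKM in WT samples 1 to 4, with an absent entry taken as 0, and in 17.2, 12.8, 26.4 and 9.65% in MG53-TG samples 1 to 4, and these shares overlapped (exact permutation p = 0.257).

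Slc27a1 (ENSMUSG00000031808, chr8:71568882-71587302, plus strand) encodes FATP1, best known from muscle and adipose tissue. WT samples 1 to 4 had 8.26, 8.58, 10.1 and 9.02 FPKM and MG53-TG samples 1 to 4 had 8.95, 12.2, 8.75 and 7.30 FPKM. Both the highest and the lowest value were in MG53-TG samples, and the groups overlapped. The log2 fold change was 0.03, with a 95% interval from -0.31 to 0.37 (limma adjusted p = 0.888), and it was -0.10 without MG53-TG sample 2, -0.01 without WT sample 1 and -0.06 from the end event alone. Its value summed 7 listed starts, of which 4 belong to retained-intron or processed transcripts. A share of 32.3% to 50.3% in 7 samples came from the first exon of the retained-intron transcript Slc27a1-205 (chr8:71579213-71579798), which had 0.216% in WT sample 4. In WT sample 4 the first exon of Slc27a1-207 (chr8:71568882-71569023) held 53.9% of the start FPKM, and this start had no entry in the other samples. None of its 5 start shares tested passed the threshold. For the single end event WT samples 1 to 4 had 3.50, 5.07, 5.23 and 6.32 FPKM and MG53-TG samples 1 to 4 had 5.13, 4.65, 5.08 and 4.00 FPKM, again with overlap.

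Of the activation genes, Acsl5 was the most abundant in both groups, and it rose while the shares of its 2 starts shifted. ACSL5 is a synthetase of the mitochondrial outer membrane and endoplasmic reticulum and is abundant in the small intestine. For Acsl5 (ENSMUSG00000024981, chr19:55251938-55297720, plus strand), WT samples 1 to 4 had 106, 141, 120 and 115 FPKM and MG53-TG samples 1 to 4 had 270, 261, 326 and 381 FPKM. The groups were far apart, and MG53-TG sample 4 was the highest. The fitted difference was 1.34 on the log2 scale (SE 0.14; limma adjusted p = 0.000138, exact permutation p = 0.0286), and it was between 1.15 and 1.53 over the other settings.

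Acsl5 has 2 starts in these data, and they moved in opposite directions. The upstream start, the first exon of Acsl5-205 (chr19:55251938-55252076, not coding), had 55.2, 94.3, 85.0 and 66.8 FPKM in the WT samples, in order of their number, and 263, 240, 315 and 374 FPKM in the MG53-TG samples. The downstream start, the first exon of Acsl5-201 (chr19:55253369-55254166, not coding), had 51.2, 46.9, 35.0 and 48.1 FPKM in the WT samples and 7.47, 20.8, 11.3 and 7.18 FPKM in the MG53-TG samples. The groups did not overlap at either start, and the downstream one was highest in MG53-TG sample 2 among the MG53-TG samples. The upstream start rose by 1.98 on the log2 scale (limma adjusted p = 0.000416 over 62657 events) and the downstream start fell by 1.97 (limma adjusted p = 0.00312), where 26.4% of all events tested were called, 9.83% as higher and 16.6% as lower. The single end of the gene (chr19:55296366-55297720) rose like the gene as a whole, from 106, 140, 120 and 115 FPKM to 270, 261, 326 and 381 FPKM. In Acsl4 the start and the end had identical values in every sample, so starts and ends of a gene may not be measured separately. The end of Acsl5 therefore adds no separate support to its rise.

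The upstream start thus took 51.8, 66.8, 70.8 and 58.2% of the start FPKM of Acsl5 in WT samples 1 to 4 and 97.2, 92.0, 96.5 and 98.1% in MG53-TG samples 1 to 4. Both starts were in use in every WT sample, whereas in every MG53-TG sample the downstream start held at most 7.96%. The mean share went from 61.9% ± 8.54 to 96.0% ± 2.70 (SD, n = 4 each; limma on the arcsine scale, adjusted p = 0.0182, exact permutation p = 0.0286). Of the 5319 start shares tested 0.884% passed the threshold, 47 in all, while 568 had an unadjusted p under 0.05. On simulated data the fit recovered 30.0% of changed shares, all with a change of the same size. Since the shares of Acsl5 sum to 100%, its 2 calls are 1 result. The adjusted p of the share was 0.0641 without WT sample 4, 0.0556 without MG53-TG sample 1, 0.0539 without MG53-TG sample 3 and 0.0602 without MG53-TG sample 4, within a range of 0.0150 to 0.212 over all alternatives. The value of 0.212 came from the fit with the replicate number as a block, under which 0 start shares were called. Without WT sample 4 the count of called shares over all genes was 31, and it was 29 without MG53-TG sample 1 and 22 without MG53-TG sample 4.

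The promoter window of the downstream start (chr19:55253119-55253418, plus strand), the one that fell, is shown with the same capitals as above, and the table held no window for the upstream start.
Acsl5, downstream start: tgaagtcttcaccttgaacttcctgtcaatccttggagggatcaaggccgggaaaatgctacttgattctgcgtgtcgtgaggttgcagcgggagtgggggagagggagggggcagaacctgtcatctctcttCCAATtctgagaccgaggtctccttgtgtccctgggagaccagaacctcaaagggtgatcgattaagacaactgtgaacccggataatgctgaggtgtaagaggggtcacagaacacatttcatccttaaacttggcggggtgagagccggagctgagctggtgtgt
It held 1 CCAAT match and no match of GGGCGG or AGGTCA, and its 9 CpG dinucleotides compare with a median of 7 over all windows.

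**Figure D2:**
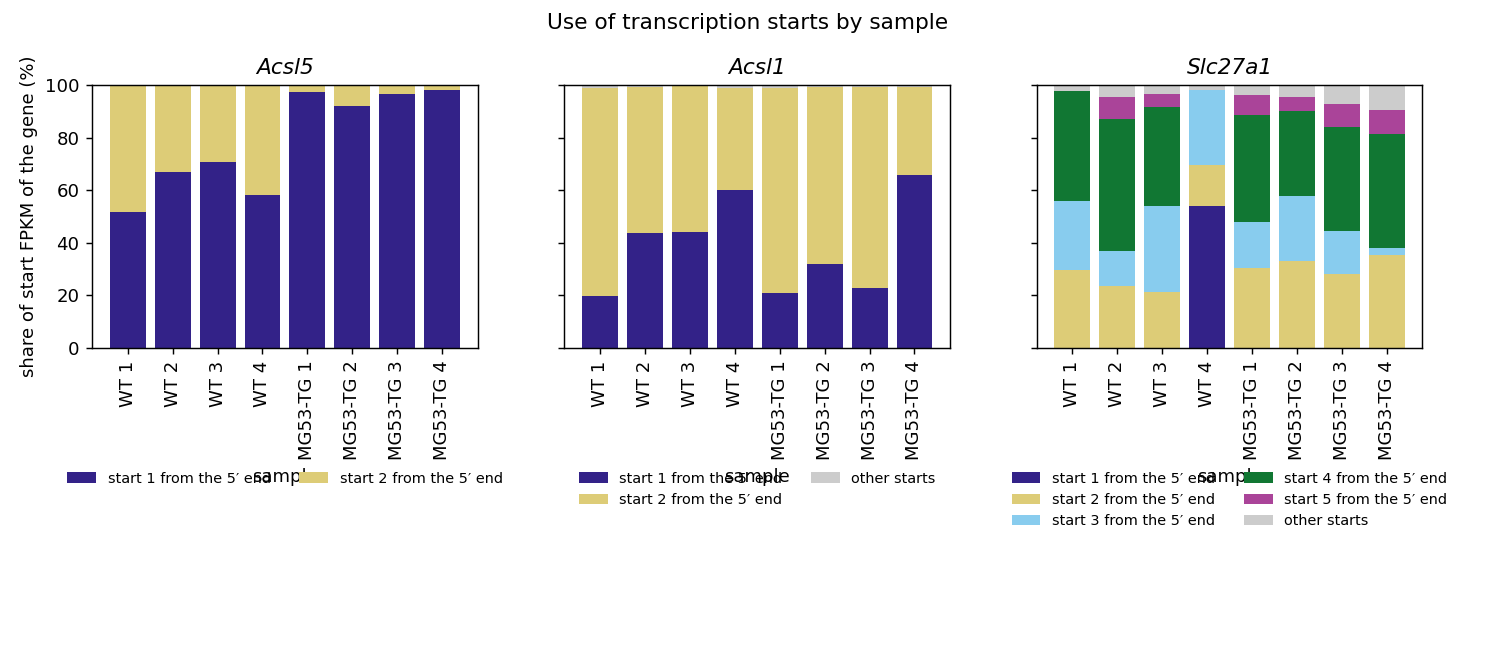
Share of the start FPKM of Acsl5, Acsl1 and Slc27a1 (vertical axis, percent) that each transcription start held in each of the 8 samples (horizontal axis). Starts with a mean share of at least 5% are numbered from the 5′ end of the gene, and the rest are pooled in grey. Start 1 of Acsl5 holds 51.8% to 70.8% in the WT and 92.0% to 98.1% in the MG53-TG samples, while start 1 of Acsl1 varies from 19.7% to 65.7% without separating the groups.

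Acsl1 (ENSMUSG00000018796, chr8:46471037-46536051, plus strand) encodes a synthetase with a broad role in triglyceride synthesis and fatty acid oxidation. WT samples 1 to 4 had 17.1, 15.3, 17.5 and 18.3 FPKM of it and MG53-TG samples 1 to 4 had 19.2, 19.7, 23.5 and 25.8 FPKM. The groups did not overlap, but MG53-TG samples 1 and 2 lay close to the highest WT sample. Its log2 fold change was 0.35 (SE 0.12, limma adjusted p = 0.0429, exact permutation p = 0.0286). The call depended on single samples, since the adjusted p was 0.0836, 0.110, 0.0717 and 0.0613 without WT samples 1 to 4 in turn, 0.104 without MG53-TG sample 3 and 0.0977 without MG53-TG sample 4, and it ranged from 0.0209 to 0.0446 over the other settings.

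Unlike Acsl5, Acsl1 used its 2 main starts in proportions that varied within both groups. The upstream start, in the first exon of Acsl1-201 (chr8:46471037-46471230), took 19.7, 43.5, 44.3 and 60.1% in WT samples 1 to 4 and 21.1, 32.1, 23.0 and 65.7% in MG53-TG samples 1 to 4. Sample 4 was the highest and sample 1 the lowest in each group, although the numbers do not mark pairs in the labels. The mean shares of 41.9% ± 16.6 and 35.5% ± 20.7 (SD, n = 4 each) did not differ beyond this spread (limma adjusted p = 0.878). The promoter windows of both starts are shown because their composition differs, the first from chr8:46470787-46471086 and the second from chr8:46490716-46491015, both on the plus strand.
Acsl1, upstream start: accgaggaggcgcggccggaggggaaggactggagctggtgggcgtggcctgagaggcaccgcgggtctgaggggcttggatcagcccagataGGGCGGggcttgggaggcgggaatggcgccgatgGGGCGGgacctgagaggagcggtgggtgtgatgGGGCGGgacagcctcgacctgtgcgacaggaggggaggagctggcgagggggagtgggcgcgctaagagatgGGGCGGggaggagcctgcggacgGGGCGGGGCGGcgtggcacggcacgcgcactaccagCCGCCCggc
Acsl1, downstream start: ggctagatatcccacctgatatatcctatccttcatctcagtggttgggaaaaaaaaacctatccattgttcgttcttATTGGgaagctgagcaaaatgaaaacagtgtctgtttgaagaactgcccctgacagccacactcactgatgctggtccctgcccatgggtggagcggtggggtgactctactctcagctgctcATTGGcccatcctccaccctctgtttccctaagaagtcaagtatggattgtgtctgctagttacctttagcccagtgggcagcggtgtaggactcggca
The upstream window held 7 matches of GGGCGG, 30 CpG dinucleotides and 74.0% G and C, and the downstream window held no GGGCGG, 2 CCAAT matches, 4 CpG dinucleotides and 50.0% G and C. The downstream start, in the first exon of Acsl1-203 (chr8:46490966-46491161), took 33.3% to 79.1% of the start FPKM.

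Acsl3 and Acsl4 fell. Acsl3 (ENSMUSG00000032883, chr1:78657825-78707743, plus strand) encodes a synthetase of the endoplasmic reticulum and of forming lipid droplets. Here WT samples 1 to 4 had 60.6, 56.9, 50.4 and 54.6 FPKM and MG53-TG samples 1 to 4 had 43.2, 37.5, 35.7 and 31.5 FPKM. All MG53-TG samples were below all WT samples. This gave a log2 fold change of -0.58 (SE 0.11; limma adjusted p = 0.00359, exact permutation p = 0.0286). The first exon of Acsl3-201 (chr1:78657825-78658103) held at least 99.1% of its start FPKM in every sample. The second exon of Acsl3-201, which is 140 bases long and not coding (chr1:78663141-78663280), was included in 11.1, 14.3, 11.8 and 24.3% of FPKM in WT samples 1 to 4 and in 6.67, 1.33, 8.83 and 11.9% in MG53-TG samples 1 to 4. The form with this exon fell by 1.52 on the log2 scale (limma adjusted p = 0.0192) and the form without it by 0.53 (limma adjusted p = 0.0378), but the inclusion overlapped between the groups at MG53-TG sample 4 (exact permutation p = 0.0857).

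Acsl4 (ENSMUSG00000031278, chrX:142317993-142390535, minus strand) encodes a synthetase that prefers arachidonic acid and other polyunsaturated fatty acids, and it had the largest fitted decrease of the 8 genes. WT samples 1 to 4 had 8.43, 7.94, 8.41 and 7.71 FPKM and MG53-TG samples 1 to 4 had 1.63, 1.72, 1.11 and 0.591 FPKM. The WT samples lay within a narrow range, and the highest MG53-TG sample was far below it. The fitted difference was -2.04 on the log2 scale (SE 0.18; limma adjusted p = 4.80e-05, exact permutation p = 0.0286), and it was -2.69 with a pseudocount of 0.1. The gene had 1 listed start, the first exon of Acsl4-201 (chrX:142390305-142390535), and the promoter window of that start (chrX:142390486-142390785, minus strand) is shown for the gene that fell most.
Acsl4: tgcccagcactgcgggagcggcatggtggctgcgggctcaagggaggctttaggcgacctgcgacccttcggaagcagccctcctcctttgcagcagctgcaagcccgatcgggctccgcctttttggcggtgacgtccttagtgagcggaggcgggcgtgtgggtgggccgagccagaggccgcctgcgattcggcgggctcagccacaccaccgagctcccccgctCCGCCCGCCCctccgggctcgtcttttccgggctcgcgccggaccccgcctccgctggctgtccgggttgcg
This window held 33 CpG dinucleotides and 2 overlapping matches of GGGCGG on the reverse strand. Over the 11 windows of the 8 genes, 8 held GGGCGG, 6 held CCAAT and 2, those of Cd36 and Slc27a2, held AGGTCA, while 2 copies of AGGTCA in the same direction with 1 base between them, which also count as AGGTCA matches, were found in 0 of the 11 and in 0.0396% of all windows.

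Acsl4 transcripts differed at one end of an exon. The form with the exon of 240 bases (chrX:142351379-142351618), annotated in Acsl4-203, had 5.64, 6.36, 4.55 and 5.38 FPKM in the WT samples and 1.27, 1.72, 0.986 and 0.462 FPKM in the MG53-TG samples. The form shorter by 3 bases (chrX:142351379-142351615), annotated in Acsl4-202, had 1.98, 1.02, 2.25 and 2.19 FPKM in the WT samples, no entry in MG53-TG samples 1 and 2, and 0.124 and 0.129 FPKM in the last 2 MG53-TG samples. Both forms fell without overlap between the groups, as the whole gene did. The shorter form reached a mean of 0.5 FPKM only through the WT group. Their shares of the 3 forms overlapped, at 54.0% to 80.2% in the WT and 78.2% to 100% in the MG53-TG samples for the exon of 240 bases (exact permutation p = 0.0857) and at 12.8% to 28.5% and 0% to 21.8% for the shorter one (exact permutation p = 0.0571).

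**Figure D3:**
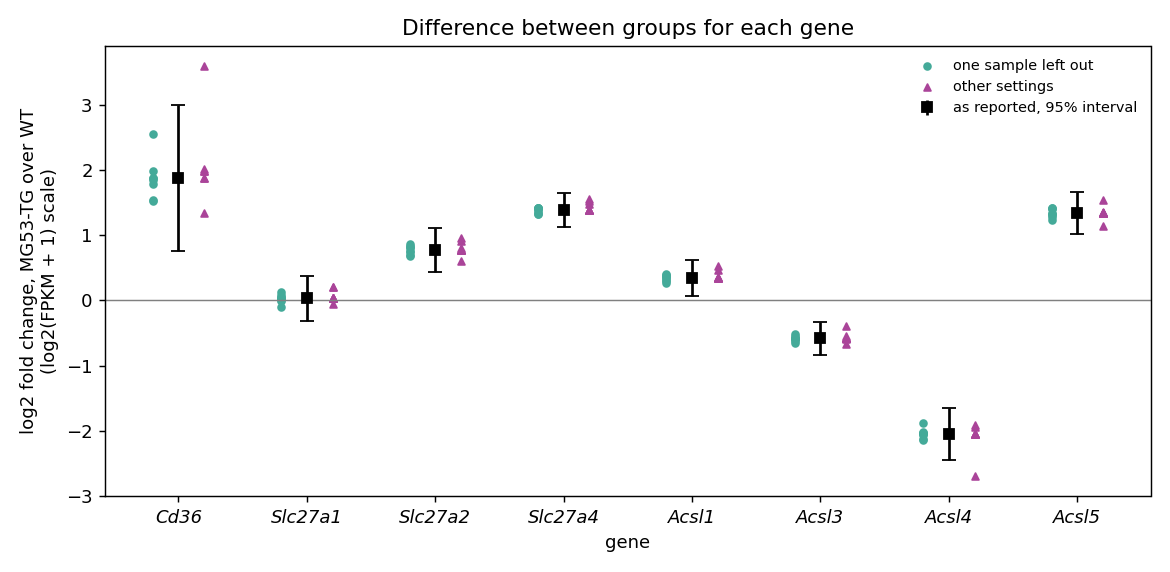
Log2 fold change of each gene between MG53-TG and WT on the log2(FPKM + 1) scale. Squares give the value as reported with its 95% interval, circles the values with 1 sample left out, and triangles those under the other settings. Only Slc27a1 has values on both sides of 0, and Cd36 has the widest interval, from 0.75 to 3.00.

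Because FPKM is scaled by transcript length, the levels of these genes can be compared with each other. In the WT organoids the order by mean FPKM was Acsl5, Acsl3, Acsl1, Slc27a2, Slc27a1, Slc27a4, Acsl4 and Cd36. The ranges of Acsl1 and Slc27a2 overlapped there, as did those of Slc27a1 with Slc27a4 and of Slc27a4 with Acsl4. The place of Slc27a1 rests on its 7 summed starts, since its end event, at 3.50 to 6.32 FPKM, lay below Slc27a4 and Acsl4 in the WT without overlap. In the MG53-TG organoids it was Acsl5, Acsl3, Slc27a2, Slc27a4, Acsl1, Slc27a1, Cd36 and Acsl4, and the ranges of Slc27a2 and Slc27a4, of Slc27a4 and Acsl1, and of Cd36 and Acsl4 overlapped. Slc27a4 and Acsl4, which had nearly the same level in the WT, had 23.0 ± 2.37 and 1.26 ± 0.523 FPKM (SD, n = 4 each) with MG53 overexpressed.

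The summed FPKM of the 4 Acsl genes was 201 ± 13.3 (SD, n = 4) for WT and 370 ± 54.4 (SD, n = 4) for MG53-TG organoids, without overlap, and its make-up shifted towards Acsl5. Acsl5 made up 55.3, 63.8, 61.1 and 58.8% of this sum in WT samples 1 to 4 and 80.9, 81.6, 84.4 and 86.8% in MG53-TG samples 1 to 4. Acsl3 made up 31.5, 25.7, 25.7 and 27.9% among WT and 12.9, 11.7, 9.24 and 7.18% among MG53-TG samples. The share of Acsl4 went from 4.05% ± 0.360 to 0.362% ± 0.186 (SD, n = 4 each). Acsl1, although its own FPKM was higher, went from 8.51% ± 1.09 of the sum to 5.97% ± 0.194 of it (SD, n = 4 each). The 3 Slc27a genes summed to 32.1 ± 2.72 and 58.5 ± 5.22 FPKM (SD, n = 4 each). Of that sum Slc27a4 made up 22.8% to 30.3% in the WT and 36.6% to 41.6% in the MG53-TG samples, Slc27a2 made up 41.3% to 51.1% and 42.2% to 47.3%, and Slc27a1 made up 25.4% to 32.7% and 12.5% to 21.3%. The share of Slc27a2 overlapped between the groups, whereas those of Slc27a4 and Slc27a1 did not, with Slc27a1 again taken from its starts.

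**Figure D4:**
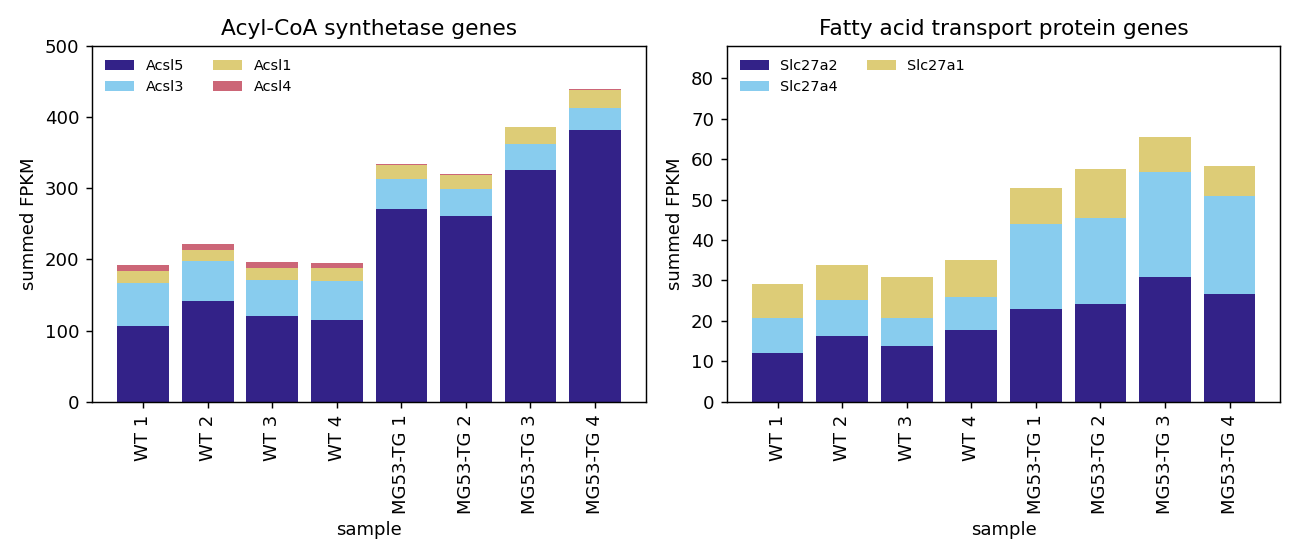
Summed FPKM of the 4 Acsl genes (left) and the 3 Slc27a genes (right) in each of the 8 samples, with colours for the genes. Acsl5 makes up 55.3% to 63.8% of the Acsl sum in the WT and 80.9% to 86.8% in the MG53-TG samples, and Slc27a4 makes up a larger part of the Slc27a sum in every MG53-TG sample than in any WT sample.

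The remaining genes of the 2 families were at low levels. Slc27a3 was between 0.316 and 0.778 FPKM where listed and did not pass the threshold (log2 fold change 0.17, limma adjusted p = 0.469). Slc27a5, Slc27a6 and Acsl6 were under the filter of a mean of 0.5 FPKM, and Acsl6, known from brain, had 0.757 FPKM in MG53-TG sample 3 and 0.735 FPKM in MG53-TG sample 4. Of 14 acyl-CoA synthetase genes of other families, 7 had an entry and 6 were tested, of which 2 were higher and 4 lower, where 44.4% of all genes were called. The higher ones were Acsm5 (log2 fold change 0.98, limma adjusted p = 0.00239) and Acsf2 (0.62, limma adjusted p = 0.0428), both for medium-chain substrates, and Acsf2 passed in 1 of 8 fits that left out 1 sample, the one without MG53-TG sample 4. Acsm5, with a WT mean of 0.0672 FPKM, passed the filter only through the MG53-TG group, so its p-value adds no support beyond the listed values. The lower ones were Aacs for acetoacetate (-1.42), Acss1 (-1.25) and Acss2 (-0.83) for acetate, and Acsm3, which was at 1.24 to 1.62 FPKM in the WT and had no entry in any MG53-TG sample. Limma adjusted p of these 4 was at most 0.00198. Acsm3 passed the filter only through the WT group, so its p-value adds no support beyond its listing in the WT.

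Acyl-CoA thioesterases split acyl-CoA and so reverse activation. Of 15 such genes 9 were tested, 7 were higher and 2 lower, beside 15.5% of all genes higher and 28.9% lower, with a median log2 fold change of 0.72 against -0.17 over all genes. Acot11 rose from 3.07 ± 0.552 to 12.5 ± 2.91 FPKM (SD, n = 4 in both groups; log2 difference 1.72, limma adjusted p = 9.93e-05), and the mitochondrial Acot2 rose from 7.30 ± 0.594 to 19.6 ± 1.61 FPKM (SD, n = 4 in both groups; log2 difference 1.31, limma adjusted p = 3.02e-05). The cytosolic Acot1 rose by a log2 fold change of 0.99 from its starts (limma adjusted p = 0.000707) and was at -0.31 from its ends (limma adjusted p = 0.779). Acot1 to Acot6 are close copies of each other, so reads may have been split among them and their values are uncertain. Acot9 and Acot7 fell by 0.72 and 0.63 on the log2 scale (limma adjusted p = 0.00190 and 0.00400).

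Of 10 genes for membrane proteins and palmitoylation enzymes tied to fatty acid uptake 9 were tested, 1 was higher and 3 were lower, a share of calls close to the 44.4% over all genes. Scarb1, a scavenger receptor related to CD36, rose from 25.4 ± 1.62 to 45.5 ± 4.29 FPKM (SD, n = 4 in both groups; log2 difference 0.81, limma adjusted p = 0.000321). Cav2, Selenok and Got2 had log2 fold changes of -0.98, -0.36 and -0.35, and with median-of-ratios scaling those of Selenok and Got2 were -0.17 and -0.16 and no longer passed (limma adjusted p = 0.288 and 0.173). Cav2, with an MG53-TG mean of 0.161 FPKM, passed the filter only through the WT group. Of the receptors for free fatty acids only Ffar4, a receptor for long-chain fatty acids, was tested, and it fell from 2.51 ± 0.153 to 0.670 ± 0.289 FPKM (SD, n = 4 each; limma adjusted p = 0.000511).

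Of 15 genes for enzymes that take up acyl-CoA first in a pathway 12 were tested, 5 were higher and 4 lower, beside 44.4% of all genes called in either direction, and Soat1, Soat2 and Elovl1 did not pass the threshold. Mogat2, Dgat1 and Dgat2, which build triglyceride in absorptive cells, rose by log2 fold changes of 2.75, 1.92 and 1.73 (limma adjusted p = 9.28e-06, 0.000366 and 4.58e-05). Cpt1a, which admits acyl groups to mitochondria, rose by 0.72 on the log2 scale (limma adjusted p = 0.000215), and the acyltransferase gene Gpat3 rose by 1.24 (limma adjusted p = 0.000410). The elongase genes Elovl5 and Elovl6 had log2 fold changes of -1.34 and -0.61, the acyltransferase gene Gpam -0.98 and Gpat4 -0.62, and Gpat4 did not pass without WT samples 2, 3 or 4 or without MG53-TG samples 3 or 4 (limma adjusted p = 0.0547 to 0.0704).

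**Figure D5:**
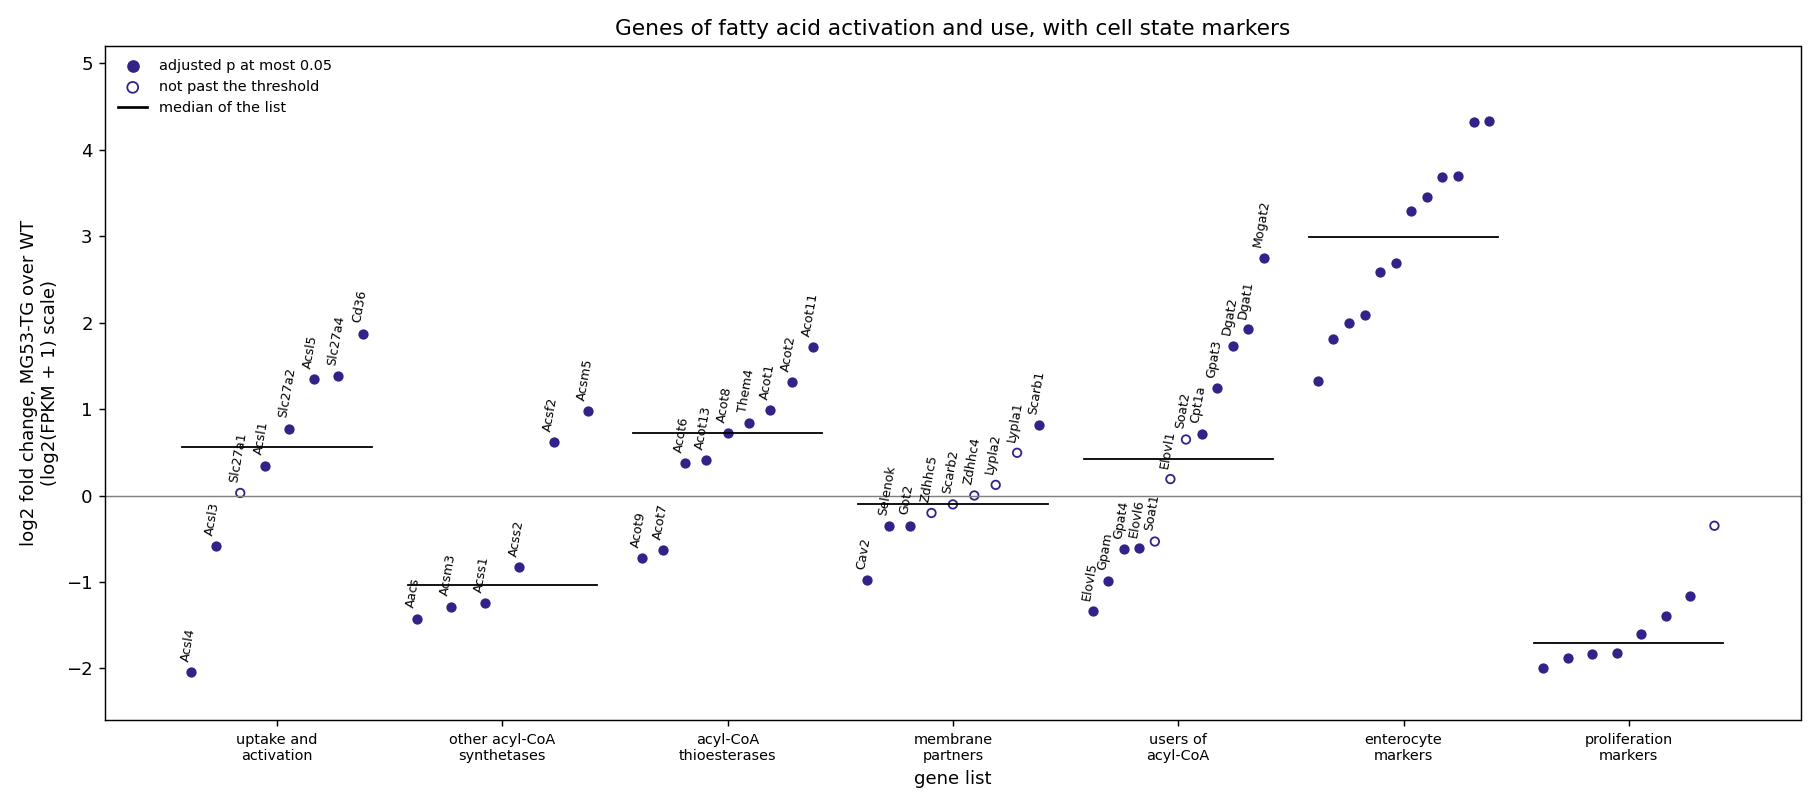
Log2 fold change between MG53-TG and WT on the log2(FPKM + 1) scale for each tested gene of 7 lists, ordered within each list. Filled points passed an adjusted p of 0.05, open points did not, and the line is the median of the list. The 8 uptake and activation genes span from Acsl4 at -2.04 to Cd36 at 1.87, which passed the filter only through the MG53-TG group. Their median of 0.56, Cd36 included, lies below that of the enterocyte markers and above that of the proliferation markers.

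Markers of the state of the epithelium differed between the groups as well. All 12 enterocyte markers were higher in the MG53-TG organoids, beside 15.5% of all genes, and their sum was 301 to 335 FPKM (WT) and 2345 to 3538 FPKM (MG53-TG). Sis went from 71.9 ± 3.10 to 834 ± 278 FPKM and Apoa4 from 39.4 ± 2.95 to 838 ± 239 FPKM (SD, n = 4 each). Of 8 proliferation markers 7 were lower, beside 28.9% of all genes, and their sum was 525 to 561 FPKM in the WT, 373 and 374 FPKM in MG53-TG samples 1 and 2, and 194 and 139 FPKM in MG53-TG samples 3 and 4. Pcna did not pass (limma adjusted p = 0.169), while Top2a fell by 1.60 on the log2 scale (limma adjusted p = 0.0281). MG53-TG samples 3 and 4, lowest in proliferation markers and highest in the sum of enterocyte markers, were also the highest for Cd36, Slc27a2, Slc27a4, Acsl1 and Acsl5 and the lowest for Acsl3 and Acsl4, although by its end event Slc27a2 was lowest in MG53-TG sample 3 of that group. The part of this shift in the values of the 8 genes was not tested.

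For each of the 8 genes, the most similar gene over the samples was taken by Pearson correlation of log2(FPKM + 1), as a description, since the points share the same libraries and the same split into groups. Over 8 samples these were Cyp3a25 for Acsl5 (r = 0.994), Nr1h2 for Acsl1 (r = 0.996), Avl9 for Acsl3 (r = 0.994), Sdc2 for Acsl4 (r = 0.999), Gramd3 for Slc27a4 (r = 0.998), Acaa1a for Slc27a2 (r = 0.980) and Mff for Slc27a1 (r = 0.941). For Cd36 it was Cyp1a1, with r = 0.993 over 7 samples. Slc27a1, which did not separate the groups, had the lowest of these correlations.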

How the data were processed

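RNA of 4 WT and 4 MG53-TG organoid samples was sequenced. The authors deposited, for each sample, FPKM values per transcript event, which are not counts. The submitters' processing notes name cutadapt 1.9.1, HISAT2 2.0.1, HTSeq 0.6.1, DESeq2 and the build mm10, and the tool that made the event tables is not given in the sources used here. Repeated entries were dropped (1886 to 2066 per sample). Events were placed by exon coordinates of the GENCODE M21 annotation of GRCm38, which placed 94.6% of 128369 events and moved 5.69% to another gene than the deposited one.

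The value of a gene was the FPKM summed over its start events, or over its end events where that mean was higher, which among the 8 genes applied to Cd36. An absent gene was treated as missing if the median of the remaining samples of that group reached 0.5 FPKM, and as 0 if not. Limma 3.58.1 in R 4.3.3 (lmFit, then eBayes with trend) was run on log2(FPKM + 1) of the 10841 genes whose mean reached 0.5 FPKM, and p-values were adjusted by Benjamini-Hochberg with 0.05 as the threshold. Events were fitted likewise. Start shares were fitted on the arcsine scale without trend, for genes with at least 2 FPKM of starts in every sample and mean shares of 5% to 95%. Single genes were also compared by two-sided exact permutation tests over the 70 relabellings. Pandas 2.3.3 and scipy 1.17.1 in Python 3.11.15 were used. On simulated data the gene fit recovered 78.5% of 200 changed genes among 10508, with 8 unchanged genes called. The share fit recovered 30.0% of 200 changed shares among 5319, with 2 unchanged shares called. The changed genes were a far smaller part than the 44.4% called here, with changes larger than those of Acsl1 and Acsl3. The changed shares all had a change of the same size. These percentages are therefore not the power for these data.

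The alternatives were quantile normalization, median-of-ratios scaling, a pseudocount of 0.1, no filter or one at 2 FPKM, a replicate block, leaving out each sample, an absent value as 0, start or end events only, and, for shares, at least 5 FPKM of starts. The genes, the context and marker lists and the tests were chosen with earlier results of these data known. Named were the 8 genes, up to 3 called genes with the largest increase and decrease per context list and any that a count of 5 or fewer rests on, the 2 most abundant genes per marker list, the gene most correlated with each of the 8, and Trim72. Selected outside this rule, after their values were seen, were Vil1, Krt19, Col1a1, Col1a2, Slc27a3, Slc27a5, Slc27a6 and Acsl6. Promoter windows came from RefSeq. A further enzyme gene, left out of the list of genes that use acyl-CoA for a reason unrelated to its values, is not reported here and is not in the counts of that list.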

Additional observations from a re-analysis of the deposited data

Results flagged for a closer look

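In groups of 4 samples, a sample was singled out where its gap to the nearest of the others as a share of the range of the group exceeded Dixon's 95% critical value. Of 74 groups checked 4 had such a sample, where chance gives about 3.70. In WT sample 4 the first exon of Slc27a1-207 held 53.9% of the start FPKM of Slc27a1, and this start had no entry in the other WT samples. Acsm5 was at 0.269 FPKM in WT sample 1 and had no entry in the other WT samples. Acot1 was at 28.7 FPKM in WT sample 3 and between 35.0 and 36.0 FPKM in the other WT samples, and Acot11 stood at 16.8 FPKM in MG53-TG sample 3, with 10.8 to 11.6 FPKM in the rest of that group.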

How the results depend on the processing

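The directions of Cd36, Slc27a2, Slc27a4, Acsl1, Acsl3, Acsl4 and Acsl5 held under every alternative run, and the number of called genes among the 8 lay between 5 and 7 when samples were left out in turn. Slc27a1 had log2 fold changes from -0.10 to 0.13 when samples were left out and of -0.060 with end events only, and Acot1 had one of -0.31 with end events only; the cause was not tested. The count of called start shares was 47, with 25 where starts summed to at least 5 FPKM in every sample (3352 shares tested), and between 22 and 54 when samples were left out. With the replicate number as a block, 4390 genes and 0 start shares were called by limma, against 513 shares at an unadjusted p under 0.05, and the adjusted p of the Acsl5 share was 0.212. The replicate block changed no call among the 8 genes. The deviations of same-numbered samples correlated at 0.0827, 0.0176, 0.0949 and -0.0518. Samples with different numbers were not compared in this way, so whether the numbers pair the samples is not settled. Relative to the reported values, median-of-ratios scaling shifted the median log2 fold change over all genes by 0.16 and quantile normalization by 0.11, with 2212 genes higher and 2189 lower under the former. The value of Acsl1 could not be taken from end events and that of Cd36 did not pass the filter with start events only or a mean of at least 2 FPKM. Depth is unknown, so no counting error stands behind any FPKM, and values of genes near 0.5 FPKM are the least certain.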
